A study of Mus musculus with 15 samples.

Results

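The genes described here are 8 ligand-activated nuclear receptors: the vitamin D receptor Vdr, the retinoic acid receptor Rara, the retinoid X receptors Rxra and Rxrb, the liver X receptors Nr1h2 and Nr1h3, the glucocorticoid receptor Nr3c1 and the peroxisome proliferator-activated receptor Pparg. They were chosen by gene name, and all of their probes were kept, which gave 12 probes for 8 of the 34816 gene names on the array (55681 distinct probes that were not controls). RNA came from CD4 T cells, the helper lineage of T lymphocytes, isolated by flow cytometry out of small-intestinal lamina propria leukocytes of male mice, amplified with SuperAmp, a commercial method for small samples whose steps are undisclosed, and hybridised with Cy3 to 1 Agilent array per sample. The groups were a high-fat diet for 10 days (HFD d10), the same diet for 30 days (HFD d30) and a control group on normal chow, with 5 arrays in each and 15 in all. The labels give no age or strain for any group and no day for the controls, so time on the diet and time in the experiment cannot be told apart, and nothing in them says whether the 5 samples per group are separate mice, so the p-values reflect sample-to-sample spread that may be technical.

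Nuclear receptors are transcription factors that are switched by small lipid-soluble ligands. Rara, Vdr, Pparg and the liver X receptors bind DNA as pairs with a retinoid X receptor, while the glucocorticoid receptor waits in the cytoplasm on HSP90 chaperones and binds DNA mostly as a pair of its own kind. In the gut, retinoic acid made from vitamin A induces the homing receptor CCR9 on T cells, liver X receptors sense oxysterols and induce cholesterol export, and glucocorticoids and vitamin D dampen T cell activation.

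Each value below is the log2 of a probe's processed intensity minus the 75th percentile of its array, so that 0 is the array's 75th percentile and a difference of 1 is a doubling. A probe was taken as measured on an array where the scanner software called it well above background. Values of different probes are not set against each other, because probes differ in how well they bind. In a sorted bulk sample, fewer cells of a type and less RNA per cell cannot be told apart.

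The sequences of 4 probes are shown: that of Nr1h2, the receptor with the difference most often past an unadjusted threshold, both of Nr1h3, which were detected on very different numbers of arrays, and that of the Rara probe detected on no array. The last 30 bases of each 60-base probe are printed 5′ to 3′ as the array's files give them, and capitals mark AATAAA, the commonest signal for cutting and polyadenylating an mRNA.
Nr1h2, probe A_55_P1978481, chr7:51805013-51805072, minus strand, mm9: tctcttctgccccttttatttAATAAAaaa
Nr1h3, probe A_55_P2128597, chr2:91024345-91024404, minus strand, mm9: gcgtagcattaagggagagtcaacaggttg
Nr1h3, probe A_66_P120249, chr2:91024250-91024309, minus strand, mm9: acccaaccaAATAAActagccaggagagcc
Rara, probe A_55_P2095345, chr11:98836197-98836256, plus strand, mm9: agaaagAATAAAgttctatttattctataa
AATAAA was present in the last 30 bases of 3 of the 12 receptor probes and of 8.16% of all 55681 probes, and its reverse complement TTTATT was present in the same stretch of 3 of the 12 (both Rara probes and Nr1h2) and of 1.96% of all probes. The match is a description of the letters. Outside Nr3c1, the files place the other probes at chr15:97685136-97685195 for Vdr, chr11:98835350-98835409 for the other Rara probe, chr2:27618781-27618839 and chr2:27615316-27615375 for Rxra, chr17:34175279-34175338 for Rxrb and chr6:115440213-115440272 for Pparg (all mm9). The annotation of exons was not analysed here.

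Of the 8 receptors, 3 were detected on all 15 arrays: Nr1h2, Nr1h3 and Nr3c1, each by at least 1 probe. Vdr was detected on all 5 control arrays but on 2 of 5 HFD d10 arrays and 2 of 5 HFD d30 arrays. Rara, Rxrb and Pparg stood well above background on no more than 2 of 15 arrays each by any probe. The Rxra probe with the brighter mean reached 1 of 5 HFD d10, 3 of 5 HFD d30 and 2 of 5 control arrays. Counted over the 12 probes, 4 to 6 were well above background on an HFD d10 array, 4 to 6 on an HFD d30 array and 6 to 8 on a control array. The share of all spots well above background differed too: it was 55.3 to 61.9% on HFD d10 arrays, 45.2 to 59.5% on HFD d30 arrays and 50.9 to 82.1% on control arrays. The part of that share in the receptor counts was not tested.

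**Figure D1:**
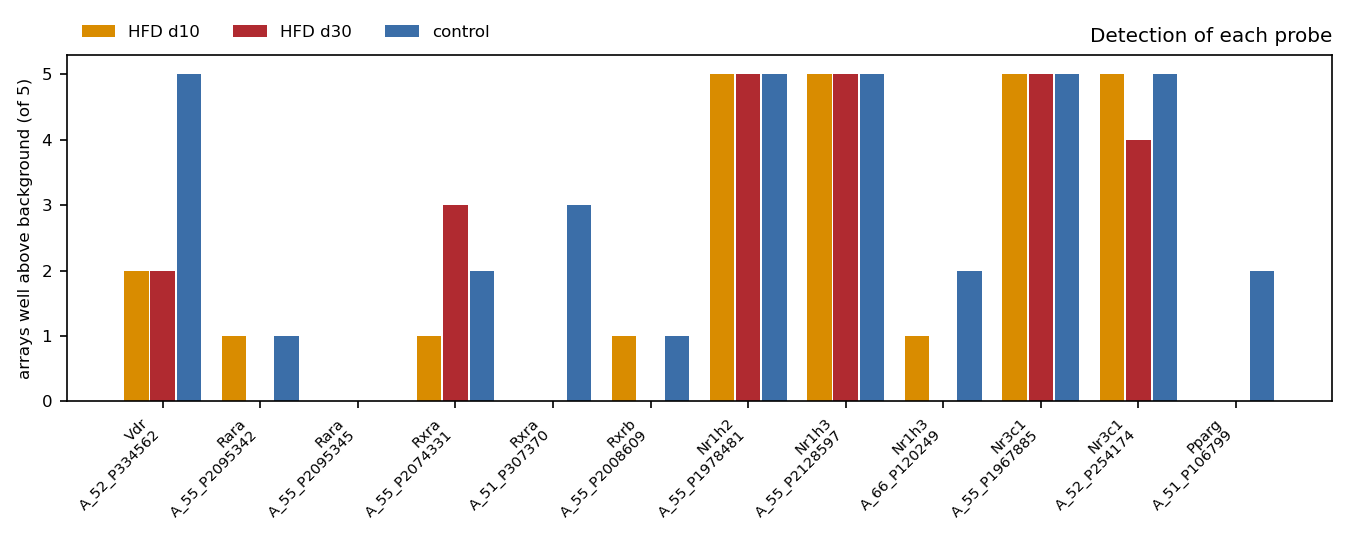
Arrays of 5 (bars, linear axis from 0) on which each receptor probe was well above background, for HFD d10, HFD d30 and control. Vdr stood at 2, 2 and 5 arrays, and Nr1h2 and the first probe of Nr1h3 and of Nr3c1 at 5 in each group.

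Genes entered the test if their brightest probe passed the background call on 5 or more arrays, which 25993 genes did and 8823 did not. Vdr, Rxra, Nr1h2, Nr1h3 and Nr3c1 passed, and Rara, Rxrb and Pparg did not. Vdr passed only through its 5 control arrays, since it was detected on 2 HFD d10 and 2 HFD d30 arrays, and its test against control is not independent of that choice. Rxra, detected on 1 HFD d10, 3 HFD d30 and 2 control arrays, would have failed without its HFD d30 or without its control arrays. Its tests are thus not independent of that choice either. The test was limma's over all tested genes, with Benjamini-Hochberg adjustment. In HFD d10 against control, 3 of 5 receptors had the higher mean (49.9% of all genes), and 0 of 5 receptors passed an adjusted p of 0.05, as did 0% of all genes tested. At an unadjusted p under 0.05 there were 0 of 5 receptors and 2.59% of all genes. In HFD d30 against control, 3 of 5 receptors had the higher mean (50.3% of all genes), 0 of 5 passed after adjustment (0% of all genes), and 0 of 5 did at an unadjusted p under 0.05 (5.14% of all genes). In HFD d30 against HFD d10, 4 of 5 receptors had the higher mean (53.1% of all genes), 0 of 5 passed after adjustment (0% of all genes) and 1 of 5, Nr1h2, at an unadjusted p under 0.05 (4.1% of all genes, and 2.29% in the lower direction). That share of all genes split into 472 higher and 595 lower genes, against 596 and 348 with normexp and 243 and 863 with the percentile over probes detected on all arrays. The first 2 comparisons share the control arrays and the last shares an arm with each of them. All control arrays were on slide 1 and all HFD d30 arrays on slide 2, and the slides differed in scan. In HFD d30 against control, for every gene, diet thus cannot be told apart from slide or scan. Separation without overlap between groups was seen for 0 of 5 receptors in each comparison, against 0.419%, 0.608% and 0.573% of all genes, in the same order.

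**Figure D2:**
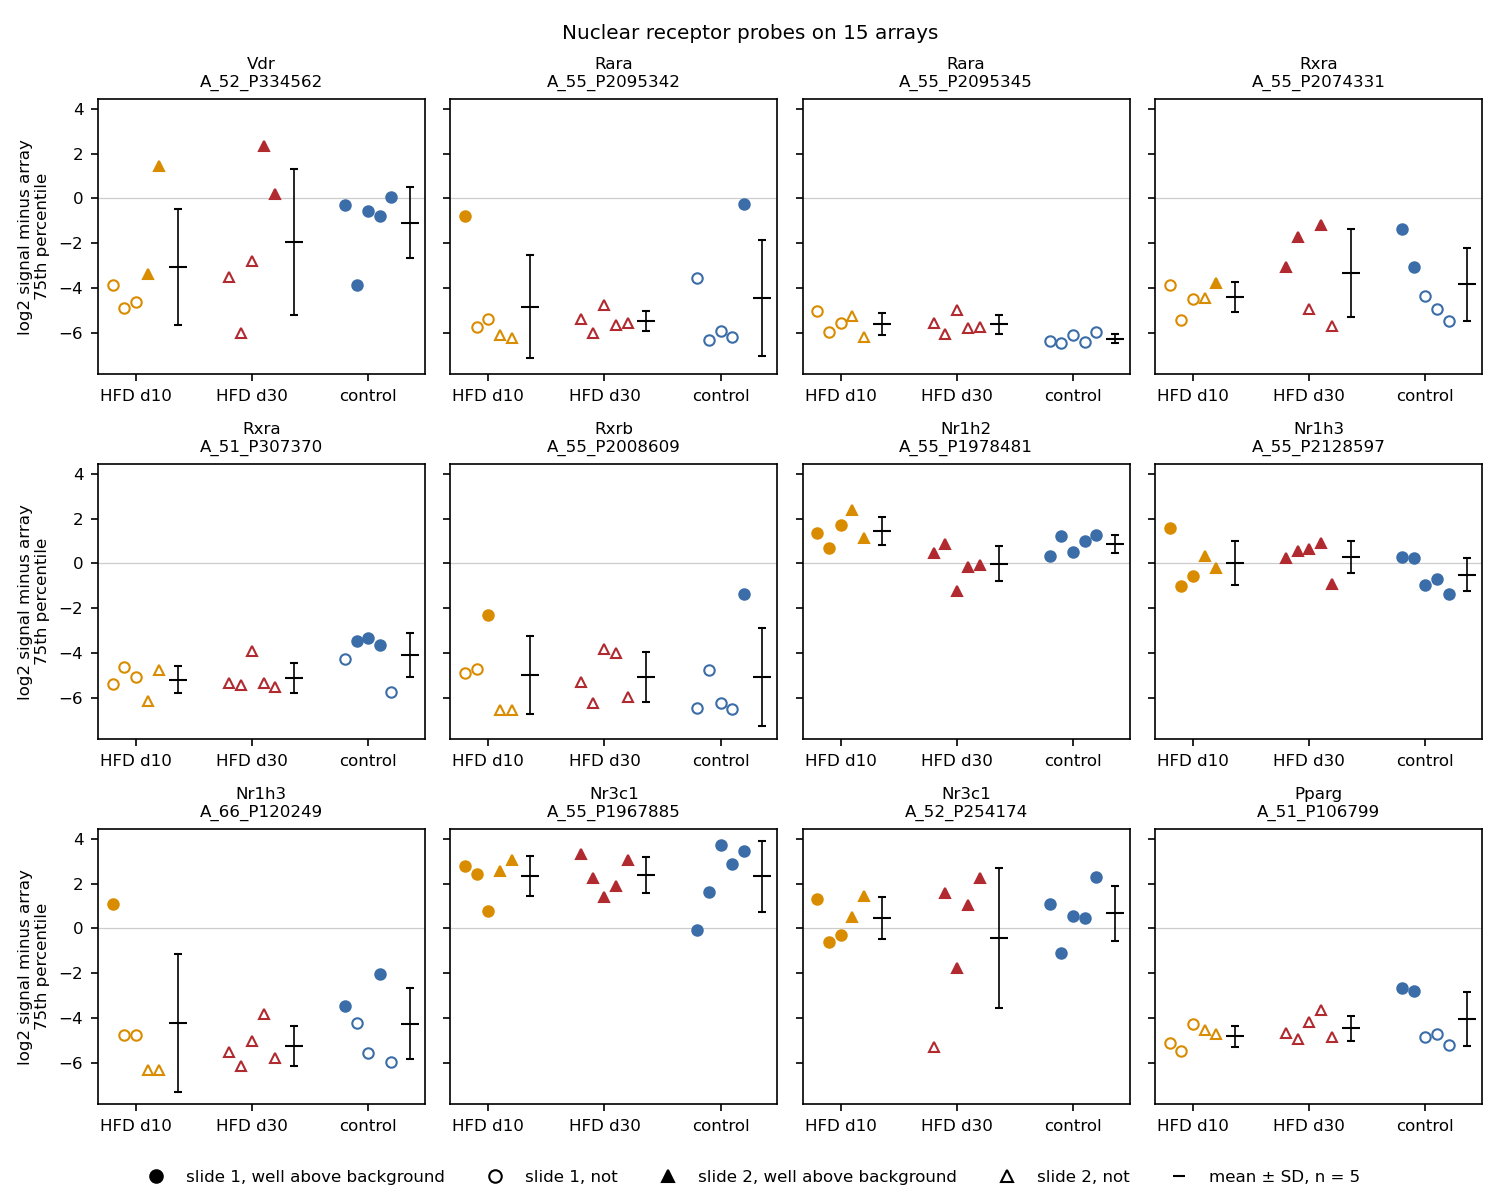
Value of each of the 12 receptor probes on each array (log2 intensity minus the array's 75th percentile), with HFD d10, HFD d30 and control from left to right, circles for slide 1, triangles for slide 2, filled where well above background, and the mean ± SD (n = 5) beside each group. Vdr is filled on all control arrays, and the Nr1h2 values at HFD d30 lie between -1.22 and 0.87, below the mean of HFD d10 on every array.

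Nr1h2, liver X receptor beta, is the widely expressed oxysterol receptor that is known in mouse T cells to restrain proliferation through sterol export. Its values were 1.36, 0.71, 1.71, 2.38 and 1.13 on the HFD d10 arrays. On the HFD d30 arrays they were 0.47, 0.87, -1.22, -0.16 and -0.06. The control arrays gave 0.33, 1.21, 0.51, 1.02 and 1.26. All 5 HFD d30 arrays lay below the HFD d10 mean and 4 of 5 below the control mean, but the groups overlapped, since HFD d30 replicate 2 was above HFD d10 replicate 2. The means were 1.46 ± 0.63 at HFD d10, -0.02 ± 0.79 at HFD d30 and 0.87 ± 0.42 in control (SD, n = 5 each). HFD d30 minus HFD d10 was -1.48 (SE 0.47, 95% interval -2.48 to -0.47, limma adjusted p = 0.9993). HFD d30 minus control was -0.89 (interval -1.89 to 0.12, limma adjusted p = 0.927). HFD d10 minus control was 0.59 (interval -0.41 to 1.60, limma adjusted p = 0.9999). In the order of the 3 means, HFD d10 highest and HFD d30 lowest, neither difference from control passed the test. Without HFD d10 replicate 4, HFD d10 minus control was 0.36, and without HFD d30 replicate 3, HFD d30 minus control was -0.59.

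The lower Nr1h2 value at HFD d30 than at HFD d10 kept its sign under all 29 other settings tried, from -1.77 to -1.01, and with an unadjusted limma p under 0.05 in 28 of them. The exception was slide 2 alone, where HFD d30 minus HFD d10 was -1.77 (SE 0.78) with means of -0.02 ± 0.79 for the 5 HFD d30 arrays and 1.76 ± 0.89 for the 2 HFD d10 arrays on that slide. The adjusted p was at least 0.895 in all of them. The residual spread of Nr1h2 was small, with an SD of 0.63 against a median of 1.37 over all genes. On slide 1 alone, HFD d10 minus control was 0.39 (SE 0.52), with means of 1.26 ± 0.51 (SD, n = 3) at HFD d10 and 0.87 ± 0.42 (SD, n = 5) in control. Nr1h2 had 1 probe, so no second probe was available to compare.

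**Figure D3:**
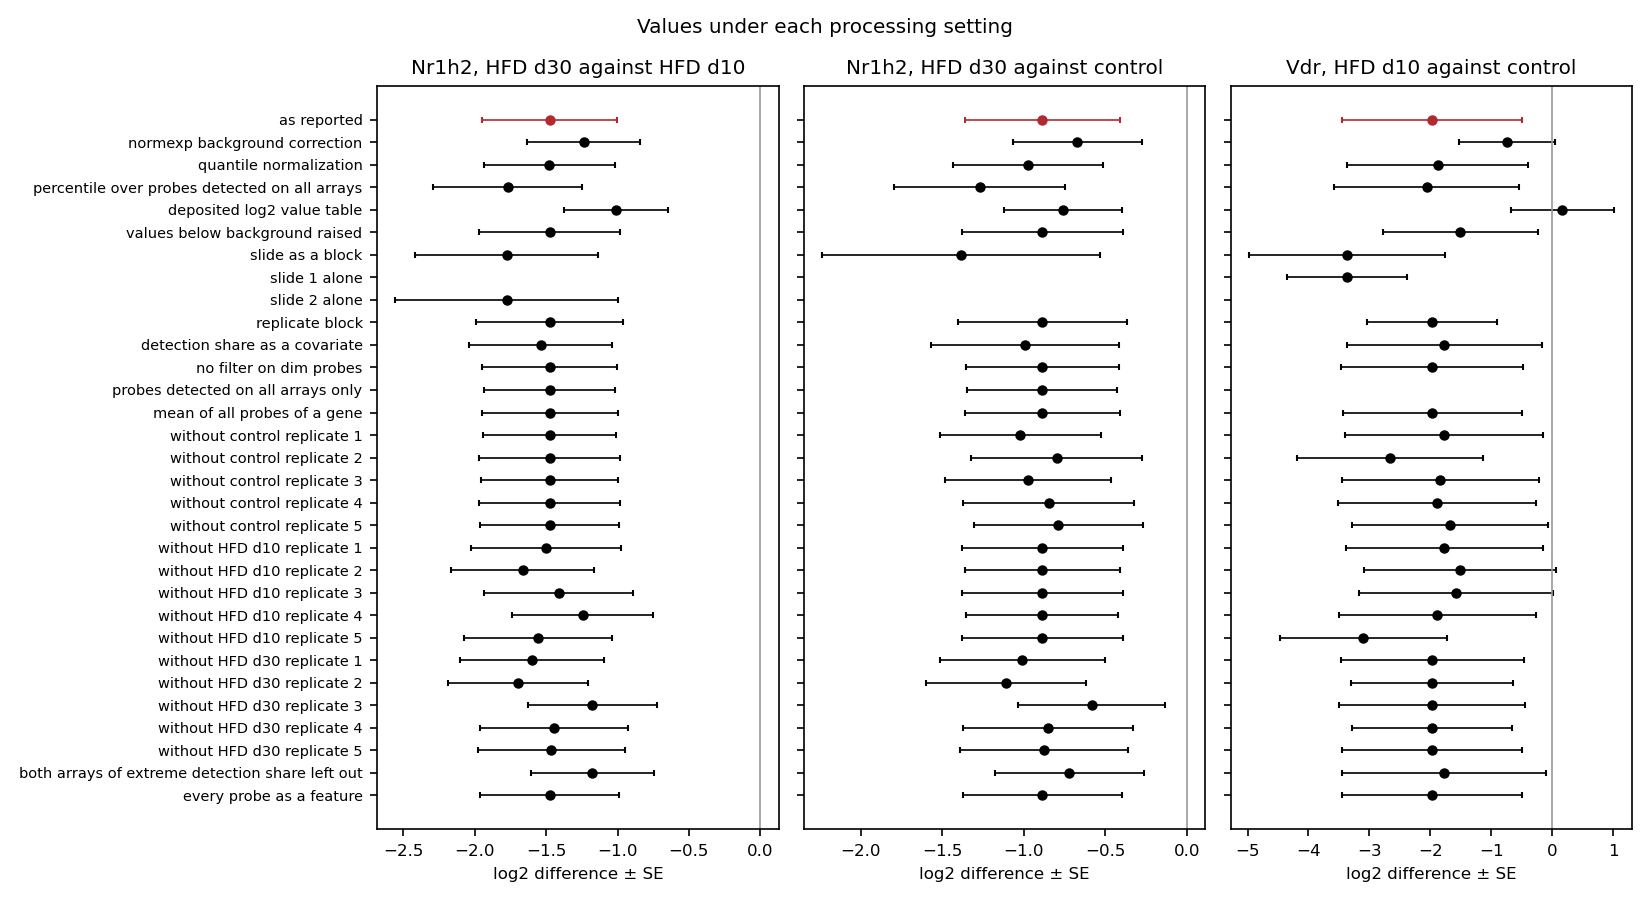
Log2 difference ± SE (points and bars, log2 axis) of Nr1h2 in HFD d30 against HFD d10, of Nr1h2 in HFD d30 against control and of Vdr in HFD d10 against control, for the value as reported (red) and each other setting; a setting with no value could not be fitted. Nr1h2 stays below 0 in every setting shown, while Vdr is below 0 in all but the deposited log2 value table.

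Nr1h3, liver X receptor alpha, is best known from macrophages, liver and gut epithelium, where it induces cholesterol efflux genes. Its brighter probe, A_55_P2128597, gave 1.56, -1.01, -0.55, 0.34 and -0.23 on the HFD d10 arrays. It gave 0.23, 0.56, 0.64, 0.92 and -0.91 on the HFD d30 arrays. On the control arrays it gave 0.29, 0.22, -0.96, -0.68 and -1.39. HFD d30 held 4 of 5 arrays above the control mean and HFD d10 held 3 of 5, and the 3 groups overlapped throughout. The means were 0.02 ± 0.99, 0.29 ± 0.71 and -0.50 ± 0.73 for HFD d10, HFD d30 and control (SD, n = 5 each). HFD d30 minus control was 0.79 (SE 0.58, interval -0.43 to 2.01, limma adjusted p = 0.933), and this difference was -0.02 with the deposited log2 value table and -0.10 with the mean of both probes. HFD d10 minus control was 0.52 (interval -0.70 to 1.74, limma adjusted p = 0.9999), and HFD d30 minus HFD d10 was 0.27 (interval -0.95 to 1.49, limma adjusted p = 0.9993), which turned negative under 3 other settings. Without HFD d10 replicate 1, HFD d10 minus control was 0.14 and HFD d30 minus HFD d10 was 0.65. With single arrays left out, HFD d30 minus HFD d10 ran from 0.01 (without HFD d10 replicate 2) to 0.65 and HFD d30 minus control from 0.57 to 1.09.

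The other Nr1h3 probe, A_66_P120249, lies just downstream on the same transcript and runs across the AATAAA shown above. It was well above background on 1 of 5 HFD d10 arrays, 0 of 5 HFD d30 arrays and 2 of 5 control arrays, so it was not tested. Its values were 1.11, -4.77, -4.76, -6.35 and -6.34 at HFD d10. They ran from -6.14 to -3.81 at HFD d30 and from -5.98 to -2.06 in control. HFD d10 replicate 1 was the highest of the 15 arrays on both Nr1h3 probes.

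Nr3c1, the glucocorticoid receptor, mediates the response to corticosterone and is known as a brake on cytokine production in T cells. Probe A_55_P1967885 gave 2.81, 2.41, 0.79, 2.58 and 3.06 on the HFD d10 arrays. It gave 3.32, 2.24, 1.41, 1.91 and 3.07 on the HFD d30 arrays. On the control arrays it gave -0.08, 1.62, 3.70, 2.88 and 3.47. The control arrays held both the lowest and the highest value, and the groups covered one another. The means were 2.33 ± 0.90 at HFD d10, 2.39 ± 0.80 at HFD d30 and 2.32 ± 1.57 in control (SD, n = 5 each). The differences were 0.01 for HFD d10 minus control (interval -1.42 to 1.45), 0.07 for HFD d30 minus control (interval -1.36 to 1.51) and 0.06 for HFD d30 minus HFD d10 (interval -1.38 to 1.49), with limma adjusted p-values of 0.999 or more, and their signs changed with the processing. The intervals still hold changes of more than a doubling either way.

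The other Nr3c1 probe, A_52_P254174, was well above background on 5 of 5 HFD d10, 4 of 5 HFD d30 and 5 of 5 control arrays. It gave 1.33, -0.61, -0.32, 0.52 and 1.45 at HFD d10. At HFD d30 it gave -5.28, 1.57, -1.75, 1.04 and 2.27. In control it gave 1.09, -1.09, 0.56, 0.48 and 2.29. HFD d30 replicate 1 was not well above background on this probe and was the highest HFD d30 array on the other, so the 2 probes disagreed there. Its differences were -0.19 for HFD d10 minus control, -1.10 for HFD d30 minus control and -0.91 for HFD d30 minus HFD d10, with SEs of 1.15 and limma adjusted p-values of 0.975 or more over 38432 probes.

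Vdr, the receptor of active vitamin D, is low in resting T cells and induced on activation. Its single probe gave -3.86, -4.89, -4.62, -3.39 and 1.46 on the HFD d10 arrays, well above background on replicates 4 and 5. On the HFD d30 arrays it gave -3.51, -6.02, -2.81, 2.34 and 0.20, well above background on replicates 4 and 5. On the control arrays it gave -0.31, -3.87, -0.55, -0.78 and 0.07, well above background on each. The highest value of all was an HFD d30 array and 4 of the 5 control values lay close together, while both diet groups spread over more than 6 log2 units. HFD d10 minus control was -1.97 (SE 1.48, interval -5.11 to 1.17, limma adjusted p = 0.9999). HFD d30 minus control was -0.87 (interval -4.01 to 2.27, adjusted p = 0.983), and HFD d30 minus HFD d10 was 1.10 (interval -2.04 to 4.24, adjusted p = 0.9993), both by limma. Single arrays decided these values: without HFD d10 replicate 5, HFD d10 minus control was -3.10 and HFD d30 minus HFD d10 was 2.23. Without HFD d30 replicate 4, HFD d30 minus control was -1.94 and HFD d30 minus HFD d10 was 0.03, and without HFD d30 replicate 2 HFD d30 minus control was 0.15.

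The Vdr differences changed with slide. The array slide, read from the files, held the 5 control arrays and HFD d10 replicates 1 to 3 on slide 1, and HFD d10 replicates 4 and 5 with the 5 HFD d30 arrays on slide 2. On slide 1, Vdr was well above background on 0 of 3 HFD d10 arrays and 5 of 5 control arrays, with means of -4.46 ± 0.53 (SD, n = 3) at HFD d10 and -1.09 ± 1.59 (SD, n = 5) in control. The means differed by -3.37 for HFD d10 minus control on that slide, with no HFD d10 value well above background. The difference was -2.60 when dim values were lifted to each array's detection floor. On slide 2, Vdr was well above background on 2 of 5 HFD d30 arrays and 2 of 2 HFD d10 arrays, and HFD d30 minus HFD d10 was -0.99, opposite in sign to the value over both slides. With slide as a block, HFD d10 minus control was -3.37 and HFD d30 minus control was -4.36, with limma adjusted p-values of 0.9999. No slide held both HFD d30 and control arrays. Of the other receptors, HFD d10 minus control on slide 1 alone was 0.50 for Nr1h3, -0.32 for Nr3c1 and -0.76 for Rxra, and HFD d30 minus HFD d10 on slide 2 alone was 0.23 for Nr1h3, -0.43 for Nr3c1 and 0.78 for Rxra, with limma adjusted p-values of 0.999 or more. The brighter Rxra probe was well above background on 0 of 3 HFD d10 arrays of slide 1. With the deposited log2 value table, in which not every gene could be fitted, the Vdr differences were 0.16 for HFD d10 minus control and 1.13 for HFD d30 minus control. How values came to be missing from it was not tested.

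**Figure D4:**
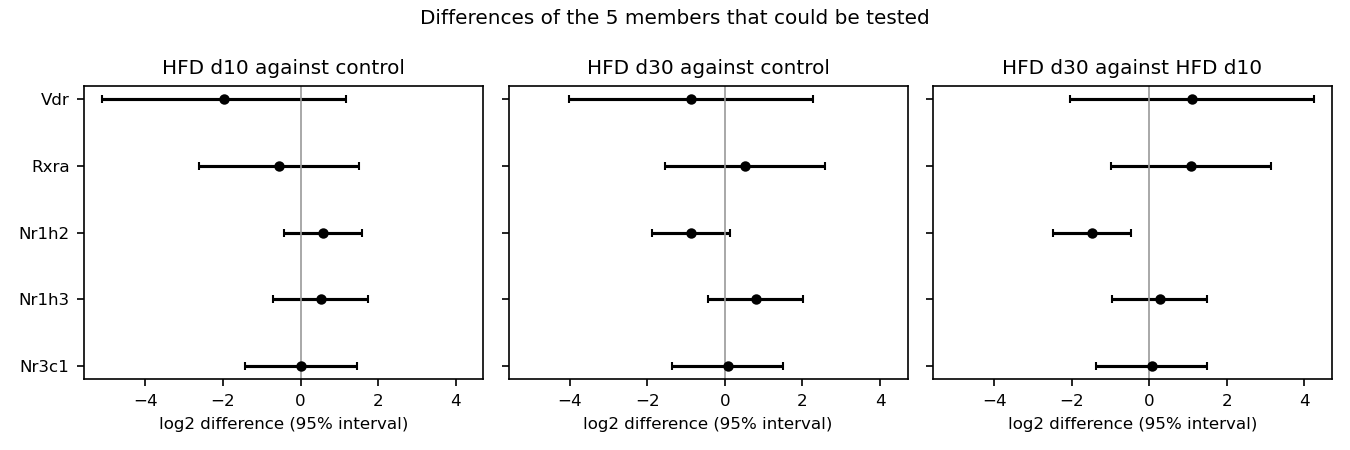
Log2 differences (points) with 95% intervals (bars) from limma for the 5 receptors tested, in HFD d10 against control, HFD d30 against control and HFD d30 against HFD d10. The interval lies wholly below 0 only for Nr1h2 in HFD d30 against HFD d10 (-2.48 to -0.47), and Vdr has the widest intervals.

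Rxra and Rxrb encode the common partners of Rara, Vdr, Pparg and the liver X receptors. Rxra probe A_55_P2074331 gave -3.89, -5.45, -4.50, -4.44 and -3.78 on the HFD d10 arrays. It gave -3.09, -1.72, -4.94, -1.21 and -5.72 on the HFD d30 arrays, and -1.37, -3.09, -4.36, -4.93 and -5.49 on the control arrays. Of the arrays well above background, HFD d30 replicate 4 and control replicate 1 were the highest, and the measured values of HFD d30 and control overlapped. The differences were -0.57 for HFD d10 minus control (SE 0.97), 0.51 for HFD d30 minus control and 1.07 for HFD d30 minus HFD d10 (interval -0.99 to 3.14), with limma adjusted p-values of 0.983 or more, and the first 2 changed sign under other settings. The HFD d10 mean of -4.41 lay below the detection floor of each HFD d10 array (-4.29 to -3.40), so differences from it are not measured folds. With single arrays left out, HFD d30 minus HFD d10 ran from 0.54 (without HFD d30 replicate 4) to 1.67 (without HFD d30 replicate 5). With the share of spots well above background as a covariate, HFD d30 minus control was 2.25 and HFD d30 minus HFD d10 was 2.07, with limma adjusted p-values of 0.623 and 0.948. The other Rxra probe, A_51_P307370, was well above background on 0 of 5 HFD d10, 0 of 5 HFD d30 and 3 of 5 control arrays. Its values ran from -6.15 to -4.63 at HFD d10, from -5.50 to -3.93 at HFD d30 and from -5.74 to -3.32 in control. The 2 Rxra probes thus differed in which group was detected most often.

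Rxrb was well above background on HFD d10 replicate 3 (-2.31) and control replicate 5 (-1.37), and on no HFD d30 array. Rara, the receptor through which retinoic acid acts on T cells, was well above background by probe A_55_P2095342 on HFD d10 replicate 1 (-0.77) and control replicate 5 (-0.27), and on no HFD d30 array. Its probe A_55_P2095345, whose end holds AATAAA, was well above background on 0 of 15 arrays. Control replicate 5 was thus the highest control array for both Rara and Rxrb. Pparg, the receptor that drives fat cell formation and is also found in regulatory T cells of fat, was printed as 10 spots and was well above background on 0 of 5 HFD d10, 0 of 5 HFD d30 and 2 of 5 control arrays, at -2.67 and -2.80 on control replicates 1 and 2. Control replicate 1 was also the array with the largest share of all spots well above background (82.1%). For the 10 cases in which a probe was above background in one group of a comparison and on no array of the other, the lower bound of the fold was under 1, so no fold is given.

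Context came from 8 gene lists around these receptors, and 0 genes of any list passed the adjusted threshold in any comparison by limma. Their medians stood beside medians over all genes of -0.00 for HFD d10 against control, 0.00 for HFD d30 against control and 0.06 for HFD d30 against HFD d10. For each of the 8 lists the sign of the median changed under at least 1 other setting in at least 1 comparison, and the counts below describe the reported scaling. Among the named context genes, the differences given below changed sign under at least 1 setting that kept all arrays or left out both arrays of extreme detection share, except where a gene is said to have kept its sign. Relatives of the members were on either side of the detection limit. Rarb and Rxrg were well above background on all 15 arrays, with Rarb means of 1.30 ± 0.37, 1.33 ± 0.28 and 1.35 ± 0.29 (SD, n = 5 each) at HFD d10, at HFD d30 and in control, and Rarg was on 1 array. Of the 29 other nuclear receptors tested, 11 were higher and 18 lower in HFD d10 than in control, and 16 were higher and 13 lower in HFD d30 than in control. In HFD d30 against HFD d10, 23 were higher and 6 lower. Their median of 0.22 became -0.07 with the percentile over probes detected on all arrays, where the median over all genes fell to -0.24.

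Ppara, the receptor of fatty acids that drives their oxidation, was well above background on all 15 arrays. It averaged -2.69 ± 0.59 at HFD d10, -2.12 ± 0.71 at HFD d30 and -0.43 ± 1.10 in control (SD, n = 5 each). HFD d10 minus control was -2.26 (SE 0.62, limma adjusted p = 0.9999) and HFD d30 minus control was -1.70 (SE 0.62, limma adjusted p = 0.927). Both were past an unadjusted p of 0.05 and kept their sign under those settings, from -2.35 to -0.53 and from -2.08 to -0.12. Ppard, its widely expressed relative, averaged 2.46 ± 0.66, 3.02 ± 1.02 and 2.20 ± 1.36 in the same groups (SD, n = 5 each), and HFD d30 minus control was 0.82 (SE 0.63). Rora, a receptor active in several T cell and innate lymphoid lineages, had an HFD d30 minus control difference of 0.67 (SE 0.48). Chosen after their values were seen, Nr1h4, the bile acid receptor, and Nr6a1 were the other receptors past an unadjusted p of 0.05. Nr1h4 was well above background on 3 of 5 HFD d10, 0 of 5 HFD d30 and 5 of 5 control arrays, so its HFD d30 level has only a bound, and no difference from it is given. Nr6a1 was on 4 of 5 HFD d10, 0 of 5 HFD d30 and 3 of 5 control arrays, so the same holds at HFD d30. Its HFD d10 minus control was 2.24 (SE 0.95, limma adjusted p = 0.9999), and from 0.71 to 2.73 under those settings. Nr6a1 passed the filter only with its HFD d10 arrays counted, so neither this test nor that range is independent of the choice. Nr1h4 passed it only with its control arrays counted, so its tests against control are not independent of that choice either.

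**Figure D5:**
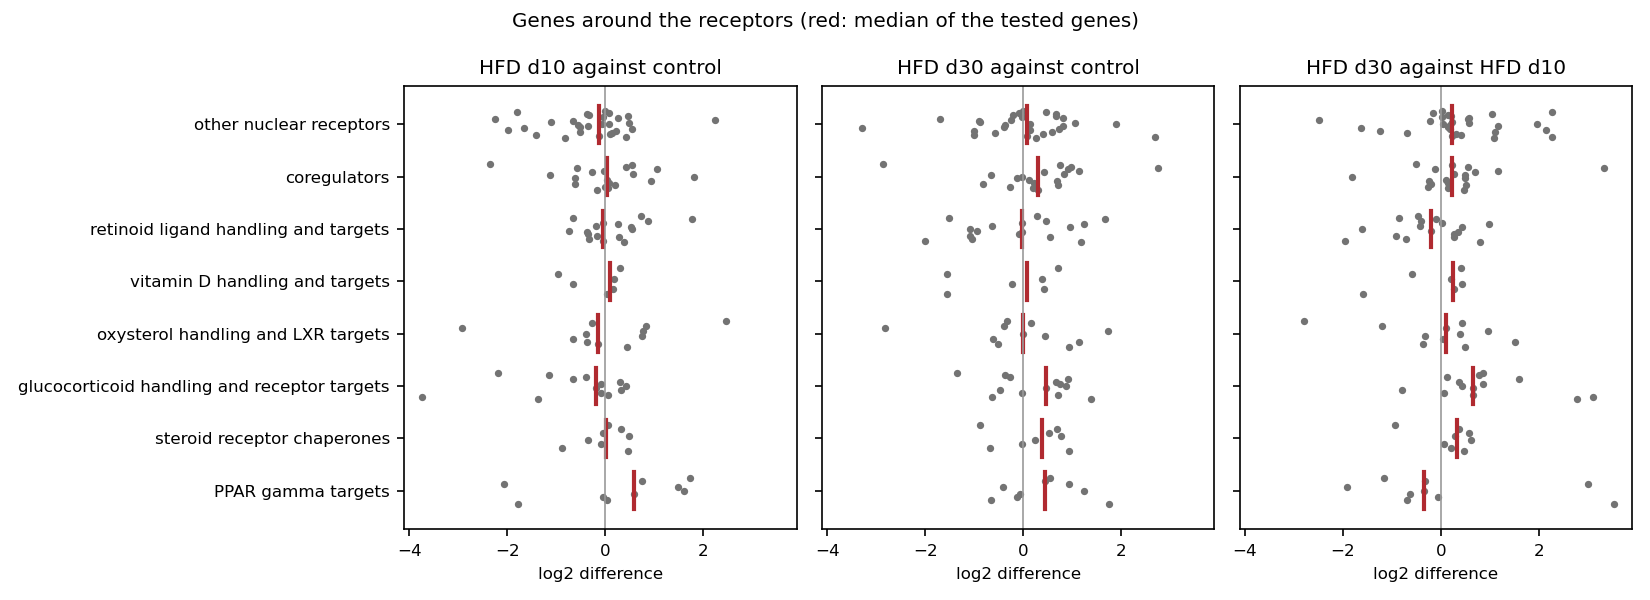
Log2 differences (points, 1 per tested gene) of the 8 context lists in HFD d10 against control, HFD d30 against control and HFD d30 against HFD d10, with the median of each list in red. Points fall on both sides of 0 for each list, and none passed the adjusted threshold.

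Coregulators carry the receptors' effect to chromatin. Of 19 tested, 10 were higher and 9 lower in HFD d10 than in control, and 13 were higher and 6 lower in HFD d30 than in control. The corepressor Ncor1 and the ligand-dependent repressor Nrip1 were on all 15 arrays. Nrip1 averaged 4.44 ± 0.42 at HFD d10, 4.31 ± 0.42 at HFD d30 and 3.39 ± 1.79 in control (SD, n = 5 each), and HFD d10 minus control was 1.05 (SE 0.63), which kept its sign. The coactivator Ncoa1 was on 4 of 5 HFD d10, 2 of 5 HFD d30 and 5 of 5 control arrays. Named after its value was seen, Ppargc1a, a coactivator of mitochondrial genes, was on 1 of 5 HFD d10, 4 of 5 HFD d30 and 2 of 5 control arrays. Its HFD d30 minus HFD d10 was 3.33 (SE 1.10, limma adjusted p = 0.9993), which kept its sign. Ppargc1a passed the filter only with its HFD d30 arrays counted, so this test is not independent of that choice. Its HFD d10 mean of -4.58 lay below the detection floor of each HFD d10 array, so the difference is not a measured fold.

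For retinoids, 17 of 21 listed genes were tested, with 8 higher and 9 lower in HFD d10 than in control, and 7 higher and 10 lower in HFD d30 than in control. Ccr9, the gut homing receptor induced by retinoic acid, was on all 15 arrays at 3.29 ± 0.65 for HFD d10, 3.55 ± 1.10 for HFD d30 and 3.01 ± 1.51 for control (SD, n = 5 each), and the groups did not differ beyond their spread. The retinoic acid-degrading enzyme Cyp26b1 was also on all 15 arrays. The synthesising enzyme Aldh1a2, known from gut dendritic cells, was on 3 of 5 HFD d10, 0 of 5 HFD d30 and 2 of 5 control arrays. Of the vitamin D genes, 6 of 10 were tested, with 4 higher and 2 lower in HFD d10 than in control. Cyp24a1, the classic target of Vdr, was on 1 of 5 HFD d10, 0 of 5 HFD d30 and 1 of 5 control arrays. Cyp27b1, which makes the active hormone, was on 2 of 5 HFD d10, 0 of 5 HFD d30 and 0 of 5 control arrays.

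Among oxysterol and liver X receptor genes, 11 of 18 were tested, with 5 higher and 6 lower in HFD d30 than in control, and 7 higher and 4 lower in HFD d30 than in HFD d10. The cholesterol exporter Abcg1 was on all 15 arrays and averaged 1.95 ± 0.92 at HFD d10, 2.45 ± 0.97 at HFD d30 and 1.51 ± 1.66 in control (SD, n = 5 each). Abca1, its partner exporter, was on 1 of 5 HFD d10, 1 of 5 HFD d30 and 1 of 5 control arrays. Srebf1, which drives fatty acid synthesis, and Mylip, which degrades the LDL receptor, were on all 15 arrays, with HFD d30 minus HFD d10 differences of 0.43 (SE 0.67) and 0.39 (SE 1.05). For Abcg1 it was 0.49 (SE 0.73). All 3 differences were smaller than their SE. Named after their values were seen, Sult2b1, a sterol sulfotransferase, had HFD d30 minus HFD d10 of -2.80 (SE 0.82) and Apoe, a lipoprotein made mainly by macrophages and liver, 1.52 (SE 0.55), each with a limma adjusted p of 0.9993, and both kept their sign. Against control, Sult2b1 stood at 2.47 at HFD d10 and -0.33 at HFD d30, and Apoe at -0.37 and 1.14. Among these differences from control, only the -0.33 of Sult2b1 changed sign. Sult2b1 was not well above background on all 15 arrays, so its differences need not be measured folds.

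Glucocorticoid genes were tested for 13 of 14 listed. In HFD d30 against HFD d10, 12 were higher and 1 lower (median 0.66). Of these, 0 passed after adjustment and 1, Cxcr4, a chemokine receptor named after its value was seen, did at an unadjusted p under 0.05. In the deposited log2 value table, by contrast, these genes split into 6 higher and 6 lower (median 0.01, with -0.13 over all genes). On slide 2 alone 9 were higher and 4 lower. In HFD d10 against control, 4 were higher and 9 lower. Of the lower genes, 1 was past an unadjusted p of 0.05 by limma and 0 passed after adjustment. It was Ddit4, named after its value was seen, at -3.74, which kept its sign but ran from -4.77 to -0.48 under other settings. Fkbp5, a chaperone and sensitive target of the receptor, was on all 15 arrays, with HFD d30 minus HFD d10 of 0.07 (SE 0.69). The values for Tsc22d3, the leucine zipper induced by glucocorticoids, Per1 and Sgk1 were 0.79 (SE 1.11), 1.59 (SE 0.97) and 0.13 (SE 1.57) in that comparison. That of Per1, a clock gene, kept its sign. Tsc22d3, Per1, Sgk1 and Ddit4 were not well above background on all 15 arrays, so their differences need not be measured folds. Of the 8 receptor chaperone genes tested, 7 were on all arrays, and in HFD d30 against control 5 were higher and 3 lower, with Hsp90ab1 at 0.77 (SE 0.49) and Ptges3 at 0.70 (SE 0.49). Past an unadjusted p of 0.05 there was 1, Dnaja1, named after its value was seen, at 0.94, and from -0.06 to 0.94 under other settings. With the deposited log2 value table and with detection share as a covariate, 1 was higher and 7 lower in that comparison. In HFD d30 against HFD d10, 7 were higher and 1 lower, against 2 higher and 6 lower under each of those settings.

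Of the genes driven by Pparg in fat, 9 of 10 were tested, with 6 higher and 3 lower in HFD d10 than in control and 5 higher and 4 lower in HFD d30 than in control. Between HFD d30 and HFD d10, 2 were higher and 7 lower at HFD d30 (median -0.35), against 4 and 4 in the deposited log2 value table and 4 and 5 on slide 2 alone. Named after its value was seen, Fabp5, another fatty acid carrier, was the 1 gene of the list past an unadjusted p of 0.05 there, at 3.01 (SE 1.33), and it kept its sign. Against control, Fabp5 stood at -2.08 at HFD d10, which kept its sign, and at 0.94 at HFD d30. Plin2, which coats lipid droplets, averaged 3.17 ± 0.88 at HFD d10, 2.00 ± 4.18 at HFD d30 and 1.45 ± 1.01 in control (SD, n = 5 each), and HFD d10 minus control was 1.72 (SE 1.41, limma adjusted p = 0.9999), which kept its sign. The fatty acid translocase Cd36 was on 5 of 5 HFD d10, 4 of 5 HFD d30 and 5 of 5 control arrays. Fabp4, a carrier of fatty acids in fat cells, was on 3 of 5 HFD d10, 0 of 5 HFD d30 and 2 of 5 control arrays. Fabp5 and Plin2 were not well above background on every array, so their differences need not be measured folds.

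The sort was checked by markers. All 8 CD4 T cell markers, Cd3e and Cd4 among them, were measured on each of the 15 arrays, and their summed level, in units of the array's 75th percentile, ran from 78.8 to 150.2 at HFD d10, from 87.6 to 224 at HFD d30 and from 38.0 to 198 in control. Of the macrophage and dendritic cell markers, 3 of 11 were (Csf1r, Fcgr1 and Apoe), and the summed level of the whole list ran from 9.48 to 20.05 at HFD d10, from 11.8 to 26.4 at HFD d30 and from 9.94 to 22.6 in control. Of the epithelial markers 2 of 10 were, with whole-list sums of 222 to 349, 248 to 566 and 230 to 320 in the same groups. The 2 were Pigr, the epithelial transporter of immunoglobulin A, with a mean of 8.15 on the log2 scale, and Krt18. Epcam, Cdh1, Fabp2 and Krt20 were on 11 to 14 arrays and the brush-border enzyme Alpi on 0. For B and plasma cells 4 of 8 were, with sums of 33.3 to 63.2, 39.3 to 70.4 and 37.9 to 51.7. The 4 were Cd22, Jchain, Xbp1 and Pax5, while Cd79b was on 13 arrays and Ms4a1 on 0. For cytotoxic cells 4 of 8 were, with sums of 96.3 to 171, 82.4 to 149.6 and 44.6 to 234. The 4 were Gzma, Gzmb, Prf1 and Nkg7, while Cd8a was on 12 arrays and Cd8b1 on 2. For stroma 0 of 6 were, with sums of 0.321 to 7.99, 0.677 to 15.1 and 3.73 to 13.9, with Pecam1 on 13 arrays, Col3a1 on 12 and Cdh5 on 0. All these ranges overlapped between groups. The sums add linear values, so the brightest gene weighs most in each. By mean log2 value that was Pigr (8.15) for epithelium, with Krt18 next at 0.29. For B and plasma cells it was Cd22 (5.18), with Jchain next at 1.44. For macrophages and dendritic cells it was Csf1r (3.08), with Fcgr1 next at 0.55. For stroma it was Pecam1 (1.67), with Col3a1 next at -2.53. The epithelial, B cell, macrophage and stromal sums thus mostly follow a single gene and say little of the other markers. The part of such cells in the values of Nr1h3, which macrophages also express, was not tested.

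The genes whose values most resembled those of the 3 receptors on all arrays were named from 6631 genes, by Pearson's r over the 15 arrays, which share amplification and scaling. They were Uhrf2 (r = 0.80) and Cldn4 (r = 0.753) for Nr1h2, Prkar2b (r = 0.812) and Gm9156 (r = 0.798) for Nr1h3, and Hnrnph2 (r = 0.909) and Gpatch11 (r = 0.901) for Nr3c1. These are the highest of many values and are given as a description.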

How the data were processed

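Agilent one-colour arrays were read from 15 samples. The deposited scanner files hold spot intensity made with Agilent Feature Extraction 10.7.3.1 whose probe positions are on mm9, per the file headers. This intensity was already background subtracted and spatially detrended, and it was not scaled between arrays. The deposited value table holds log2 values of 1 distribution shared by its columns, and how it was made is not stated in the labels or headers.

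Outlier spots were left out (10 spots of the receptors), as was 1 damaged line, and 0 receptor spots were saturated. Spots of a probe were averaged, and the 75th percentile of log2 intensity over non-control probes was subtracted from each array. A gene was its probe of highest mean, tested where that was well above background on at least 5 arrays. For context genes, 31225 probes carried a symbol matched to a RefSeq gene table. The 3 groups shared 1 linear model (lmFit and eBayes with trend from limma 3.58.1, R 4.3.3; two-sided), with Benjamini-Hochberg adjustment over 25993 genes and a threshold of 0.05. The procedure was tested on simulated data. Precision is limited by 5 arrays per group.

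The receptors, the 8 context lists and 6 marker lists, and the rule that all receptors and a set of named context genes are given whatever their values, were chosen with earlier results of these data known. One of those context genes is not reported here. Replicate numbers showed no sign of pairing the samples. No arrays were near duplicates (smallest median absolute difference 0.803, median pair 1.07). Other settings changed the background correction, normalization, percentile, filter, probe, slide, replicate block and detection share, or left out arrays.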

Additional observations from a re-analysis of the deposited data

Results flagged for a closer look

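Of 36 groups of 5 values (12 probes in 3 groups), 6 held an array that stood apart from the other 4, with a gap to its neighbour of more than 0.71 of the group's range. For independent, normally distributed values about 1 in 20 such groups would be flagged. Some groups here mix values that were and were not well above background, and the probes share arrays, so that rate need not hold for them.

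For Vdr, HFD d10 replicate 5 was at 1.46 with its nearest neighbour at -3.39, and control replicate 2 was at -3.87 with its nearest at -0.78. Without HFD d10 replicate 5, HFD d10 minus control was -3.10 for Vdr. For Rara probe A_55_P2095342, HFD d10 replicate 1 was at -0.77 and the next at -5.38. For Rxra probe A_51_P307370, HFD d30 replicate 3 was at -3.93 and the next at -5.35. Like the rest of its group, that array was not called well above background. For Nr1h3 probe A_66_P120249, HFD d10 replicate 1 was at 1.11 and the next at -4.76. For Nr3c1 probe A_55_P1967885, HFD d10 replicate 3 was at 0.79 and the next at 2.41. HFD d10 replicate 1 stood apart for both Rara and Nr1h3.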

How the results depend on the processing

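No receptor passed the adjusted threshold under any of the settings tried, and of 424 values under other settings 371 kept their sign and 53 changed it. Among all genes, 1 gene (Vkorc1l1) passed in HFD d30 against control with slide as a block, and 1 (Homer1) in HFD d30 against HFD d10 with every probe as a feature. With single arrays left out, 0 to 1 genes passed in HFD d10 against control, 0 to 2 in HFD d30 against control and 0 to 2 in HFD d30 against HFD d10. The cause of these changes was not tested.

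Nr3c1 lay near 0 and changed sign most. HFD d10 minus control was -0.05 with normexp, -0.0783 with the percentile over probes detected on all arrays, -0.091 with the deposited table, -0.32 with slide as a block and on slide 1 alone, -0.49 with detection share as a covariate and -0.0891 with the mean of all probes. HFD d30 minus control was -0.0477, -0.31, -0.41, -0.75 with slide as a block, -1.10 and -0.51 in the same order, and -0.0603 after quantile normalization. HFD d30 minus HFD d10 was -0.17 after quantile normalization, -0.24 with the percentile over detected probes, -0.31 with the deposited table, -0.43 with slide as a block and on slide 2 alone, -0.61 with detection share and -0.42 with the mean of all probes. With single arrays left out, the 3 differences ran from -0.59 to 0.40, from -0.53 to 0.42 and from -0.33 to 0.30.

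Vdr in HFD d30 minus control was 0.0174 with normexp and 1.13 with the deposited table, HFD d10 minus control 0.16 with the deposited table, and HFD d30 minus HFD d10 -0.99 with slide as a block and on slide 2 alone. Rxra in HFD d10 minus control was 0.18 with detection share, and in HFD d30 minus control -0.0828 with the deposited table and -0.26 with the mean of all probes. Nr1h3 in HFD d30 minus control was -0.0237 with the deposited table and -0.10 with the mean of all probes, and in HFD d30 minus HFD d10 -0.0267 with the percentile over detected probes, -0.26 with the deposited table and -0.38 with the mean of all probes. With single arrays left out, Vdr ran from -1.94 to 0.15 in HFD d30 minus control, and Rxra from -0.98 to 0.0545 in HFD d10 minus control and from -0.022 to 1.13 in HFD d30 minus control. With both arrays of extreme detection share left out, a setting chosen after seeing the data, Rxra in HFD d10 minus control was 0.0545, and Nr3c1 was -0.59 in HFD d10 minus control and -0.29 in HFD d30 minus control.

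The replicate numbers showed no sign of pairing the arrays. Same-numbered arrays correlated at -0.13 to 0.15 over deviations from group means, and 3 of 15 arrays were closest to their own number. With a replicate block 0 genes and 0 receptors passed in any comparison. The median of all genes, near 0 as reported, shifted most with the percentile over detected probes (-0.38 in HFD d30 against control, -0.24 in HFD d30 against HFD d10), the deposited table (-0.10 in HFD d10 against control, -0.23 in HFD d30 against control, -0.13 in HFD d30 against HFD d10), slide as a block (0.15 in HFD d30 against control, 0.13 in HFD d30 against HFD d10), dim values raised (0.10 and 0.13 in those comparisons) and only probes detected on all arrays (0.21 and 0.18). At an unadjusted p under 0.05, 673 genes passed in HFD d10 against control, with 1037 in the deposited table, 1136 with detection share, 1063 with no filter and 223 with only probes detected on all arrays. In HFD d30 against control 1337 passed (695 with only those probes, 2265 without control replicate 3), and in HFD d30 against HFD d10 1067 did (373 with only those probes). The split of higher to lower genes in HFD d30 against control was 643 to 694 as reported, 246 to 1234 with the percentile over detected probes, 337 to 1648 in the deposited table and 727 to 366 with normexp. Vdr and Rxra have no value where only probes detected on all arrays are kept. Signal over background limits Rara, Rxrb, Pparg, Rxra and Vdr.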
